A study of Saccharomyces cerevisiae with 6 samples.

Results

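The GATA factors of nitrogen regulation are a small set of budding yeast genes that decide whether genes for poor nitrogen sources are transcribed. The 5 genes described here are the activators GLN3 and GAT1, the repressors DAL80 and GZF3, and URE2, whose product holds Gln3 back. They were listed by name from their known roles, with earlier results of these data, the fall of DAL80 included, already known. All 5 were matched to the annotation of the array's probe sets, with 1 probe set each, out of 5449 Saccharomyces cerevisiae genes measured. The arrays compared 3 samples of the prototrophic strain FY4 (wild-type) with 3 samples of a GCN4 deletion mutant, both grown at 30 °C in minimal medium with glucose and taken in exponential growth. GCN4 encodes a transcription factor of the basic leucine zipper class that switches on genes for making amino acids. The nitrogen source, the parent of the deletion strain and whether it is a single clone are not given in the sources used here, and a change below is a difference between the strains as deposited. Nothing in the labels says that replicates were separate cultures; the p-values therefore measure array-to-array spread, which may be technical.

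In yeast growing on a preferred nitrogen source, Gln3 and Gat1 are kept in the cytoplasm, and Ure2 binds Gln3 there. This state is called nitrogen catabolite repression. When nitrogen is poor, or when the TOR complex 1 kinase is inhibited by rapamycin, the activators enter the nucleus and bind GATA-containing sites upstream of permease and catabolic genes. Dal80 and Gzf3 carry the same type of zinc finger, bind similar sites and repress. DAL80 is itself a target of the GATA activators, so the family is wired as a loop of activators and repressors. The arrays measure RNA and do not show where the proteins are in the cell, and fewer cells with an RNA cannot be told apart from less of it per cell.

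The targeted gene was at the array background in the deletion, with intensities of 18.1 to 22.3 against 18826 to 23339 in the wild-type, at least 283-fold lower. The background level of an array was the 95th percentile of the probe sets that name another species, an intensity of 77.5 to 97.9 among wild-type arrays and 67.9 to 82.4 among deletion arrays. All 5 GATA factor genes lay above it on all 6 arrays. The median change of all genes was 0.09 on the log2 scale (deletion minus wild-type). Mating-type markers were used to check the cells. All 7 markers of a cells were above background on every array. In the deletion 3 of them were called higher, beside 24.6% of all genes. With the replicate number as a block in the fit all 7 were, and so were 1925 of the 5449 genes. ASG7 changed most, 4.46-fold higher (adjusted p = 0.000115, limma). The summed intensity of the 7 was 47990 to 58248 (wild-type) and 70908 to 81259 (deletion). Of the 4 markers of alpha cells, 2 were called lower and 2 higher, with MF(ALPHA)1 at background on the wild-type arrays. MF(ALPHA)2 fell 1.48-fold (adjusted p = 0.00363, limma), and 10 other-species probe sets at a like level had a median log2 change of -0.36. SAG1 rose 1.45-fold (adjusted p = 0.0036, limma), with intensities of 1057 to 1221 (wild-type) and 1555 to 1746 (deletion). The 4 alpha markers summed to 1579 to 1803 (wild-type) and 2020 to 2210 (deletion), with SAG1 the largest part. The part of this shift in the nitrogen genes was not tested.

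Of the 5 genes, DAL80 and GLN3 were lower in the deletion, URE2 was higher, and GAT1 and GZF3 did not pass the test (limma, adjusted p under 0.05 over all genes). Over all genes 7.67% were called lower, 24.6% higher and 32.2% either way. With 5 genes, a count of 3 called is read only as a description beside that background. DAL80 fell 8.78-fold, whereas the other 4 genes changed by 1.20-fold or less. Wild-type and deletion arrays did not overlap for 3 of the 5 genes, against 47.5% of all genes.

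**Figure D1:**
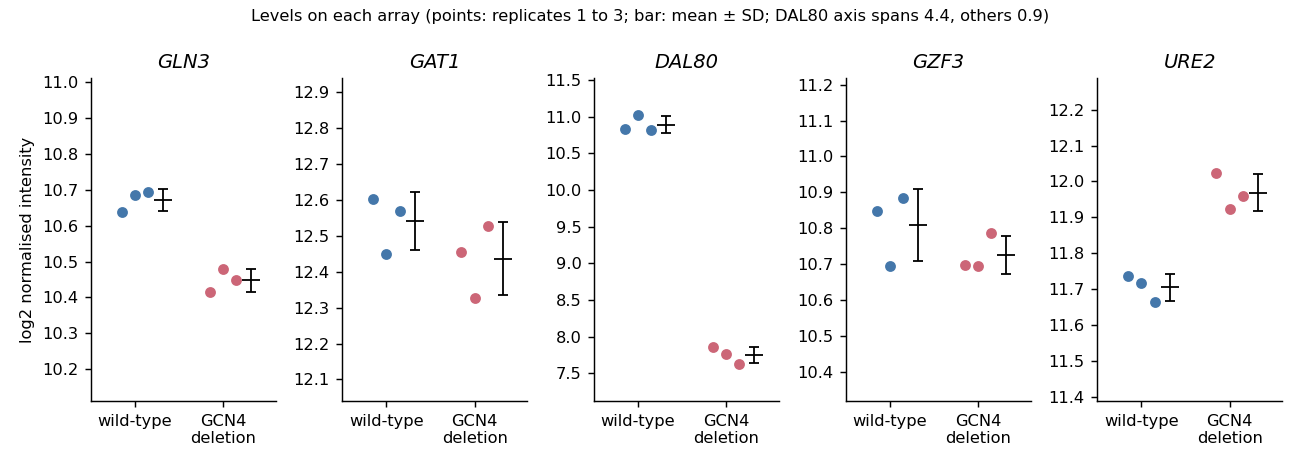
Log2 normalised intensity of each gene on each array (points, replicates 1 to 3 from left to right) with the mean ± SD of each group; the DAL80 axis covers a wider range than the others. The groups are apart for GLN3, DAL80 and URE2 and overlap for GAT1 and GZF3, and the step of DAL80 (from 10.89 to 7.75) is far larger than that of any other gene.

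GLN3 (YER040W) encodes the activator that responds most directly to glutamine supply and that Ure2 retains. Wild-type arrays gave log2 levels of 10.64, 10.69 and 10.69, and deletion arrays 10.42, 10.48 and 10.45. Every deletion array lay below every wild-type array, and the spread within a group was small. The mean went from 10.67 ± 0.03 to 10.45 ± 0.03 (SD, n = 3), a fall of 1.17-fold with an adjusted p = 0.0119 by limma. The 95% interval of the log2 change was -0.33 to -0.11. Leaving out deletion replicate 1 ended the call (log2 change -0.21, adjusted p = 0.0523), as did testing every probe set other than controls (adjusted p = 0.0658). With arrays centred on their medians the fall was larger, at -0.33 on the log2 scale.

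GAT1 (YFL021W) encodes the other activator, whose gene is known to respond to Gln3. The 3 wild-type arrays read 12.60, 12.45 and 12.57 on the log2 scale, and the 3 deletion arrays 12.46, 12.33 and 12.53. The groups overlapped, since deletion replicates 1 and 3 lay above wild-type replicate 2. The log2 change was -0.10 ± 0.07 (SE) and did not pass (adjusted p = 0.327, limma). Its 95% interval ran from -0.28 to 0.07, so a fall larger than that of GLN3 lies within it. The change moved to -0.05 without deletion replicate 2 and to -0.21 with arrays centred on their medians, and passed in neither. The differences between arrays of the same replicate number were -0.15, -0.12 and -0.04.

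DAL80 (YKR034W, also named UGA43) encodes a GATA repressor of the allantoin, GABA and urea genes. Intensities of 1812, 2077 and 1801 in wild-type replicates 1 to 3 compare with 232, 217 and 199 in deletion replicates 1 to 3. The lowest deletion value was still above the background levels given above. Those are a 95th percentile, so some other-species probe sets exceed them too. Of these probe sets, 10 had a mean log2 level within 0.5 of 7.98. How much of the remaining signal was DAL80 RNA can therefore not be told. On the log2 scale the mean went from 10.89 ± 0.12 to 7.75 ± 0.11 (SD, n = 3). The change was -3.13 with a 95% interval of -3.34 to -2.93 (adjusted p = 5.38e-06, limma). Across the 5449 genes, 3 had a lower change than DAL80. The fall was found with each of the 16 other settings tried, between -3.47 and -3.04, with the adjusted p at most 0.00012.

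GZF3 (YJL110C, also named DEH1 and NIL2) encodes the other GATA repressor, a homologue of Dal80. Log2 levels of 10.85, 10.69 and 10.88 (wild-type) and 10.70, 10.69 and 10.79 (deletion) were measured. Wild-type replicate 2 was the lowest of the 6 arrays, below all deletion arrays, while the other wild-type arrays were the highest. The log2 change was -0.08 ± 0.07 (SE) and did not pass (adjusted p = 0.398, limma), with a 95% interval of -0.24 to 0.08. The interval does not reach a change of the size seen for DAL80. Removing wild-type replicate 3 gave -0.04 and removing wild-type replicate 2 gave -0.14, while quantile normalization gave -0.20 (adjusted p = 0.0947).

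URE2 (YNL229C) encodes the cytoplasmic regulator related to glutathione transferases, which binds Gln3 and can take on a prion form. On the log2 scale, wild-type replicates stood at 11.74, 11.72 and 11.66 and deletion replicates at 12.02, 11.92 and 11.96. Every deletion array lay above every wild-type array. URE2 rose 1.20-fold, from 11.71 ± 0.04 to 11.97 ± 0.05 (SD, n = 3, adjusted p = 0.00923, limma). The call depended on scaling. It ended after centring (log2 change 0.16, adjusted p = 0.0772) and after quantile normalization (0.17, adjusted p = 0.0569), both of which lowered the median change of all genes by 0.10 to 0.11. Cyclic loess, which lowered that median by 0.08, kept the call (0.19, adjusted p = 0.0382).

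**Figure D2:**
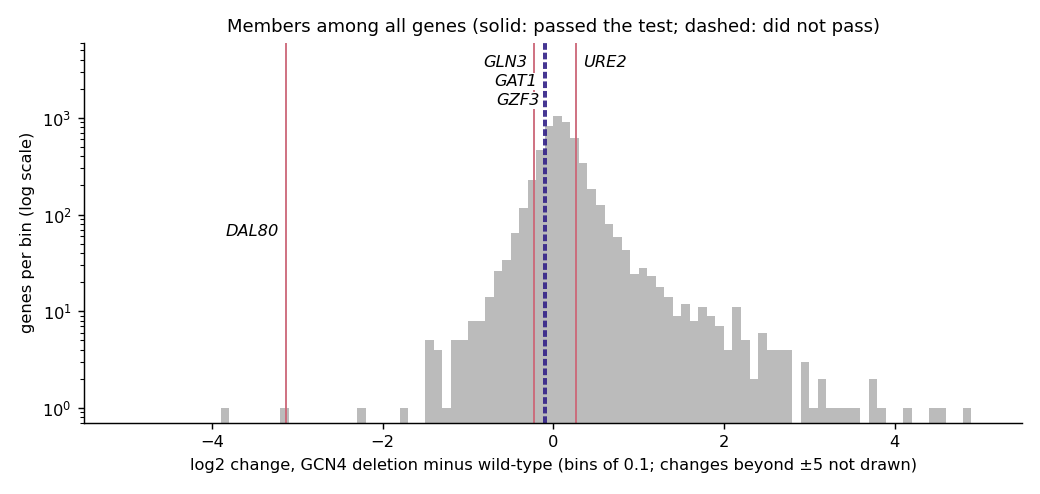
Histogram of the log2 change (deletion minus wild-type) of all genes in bins of 0.1, with a log count axis and lines at the 5 genes (solid, passed the test; dashed, did not pass). DAL80 stands in the sparse lower tail at -3.13, while GLN3, GAT1, GZF3 and URE2 lie within the main body between -0.22 and 0.26. The 2 genes beyond ±5 are not drawn.

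Within-array differences between 2 genes do not depend on centring and were used to ask whether the members changed unequally. All 10 pairs were compared by an exact permutation test over arrays, two-sided, which with 3 against 3 cannot give a p below 0.10. Between the repressors, the log2 change of DAL80 minus that of GZF3 was -3.05 (SE 0.16), with no overlap of the groups (exact p = 0.10, adjusted p = 0.125 over the pairs). The log2 change of GAT1 minus that of DAL80 was 3.03 (SE 0.15), and of GLN3 minus that of DAL80 2.91 (SE 0.10), both with the same p. The log2 level of GLN3 minus that of URE2 averaged -1.03 ± 0.06 for wild-type arrays and -1.52 ± 0.08 for deletion arrays (SD, n = 3). This shift of -0.49 (SE 0.06) had no overlap either and reached the smallest exact p the design allows, 0.10. The groups did not overlap in 8 of the 10 pairs. The pairs share genes, and each of the 8 holds GLN3, DAL80 or URE2, whose own groups did not overlap. They are therefore not 8 separate results, and the share among pairs of other genes was not worked out. The groups did overlap for GLN3 against GAT1 (difference of change -0.12, exact p = 0.3) and for GAT1 against GZF3 (-0.02, exact p = 0.7). No pair passed 0.05, which this permutation test cannot reach with 3 arrays a group.

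Genes of nitrogen use, many of them known targets of the GATA factors, were described from a list of 35, of which 31 were analysed. The name DUR1,2 found no match in the gene annotation, so whether the array measures it was not determined. ASP3-2, ASP3-3 and ASP3-4 had no probe set assigned to them alone. Of the 31, 16 fell, 5 rose and 10 did not pass (limma), with a median log2 change of -0.20 against 0.09 over all genes. The shares were 51.6% lower and 16.1% higher, beside 7.67% and 24.6% of all genes. The list was chosen with the fall of several of its genes already known, so these shares are a description only. Under the 16 other settings, 15 to 18 were lower and 4 to 6 higher. None of these genes fell as far as DAL80, and the lowest was DAL5 at -1.48.

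**Figure D3:**
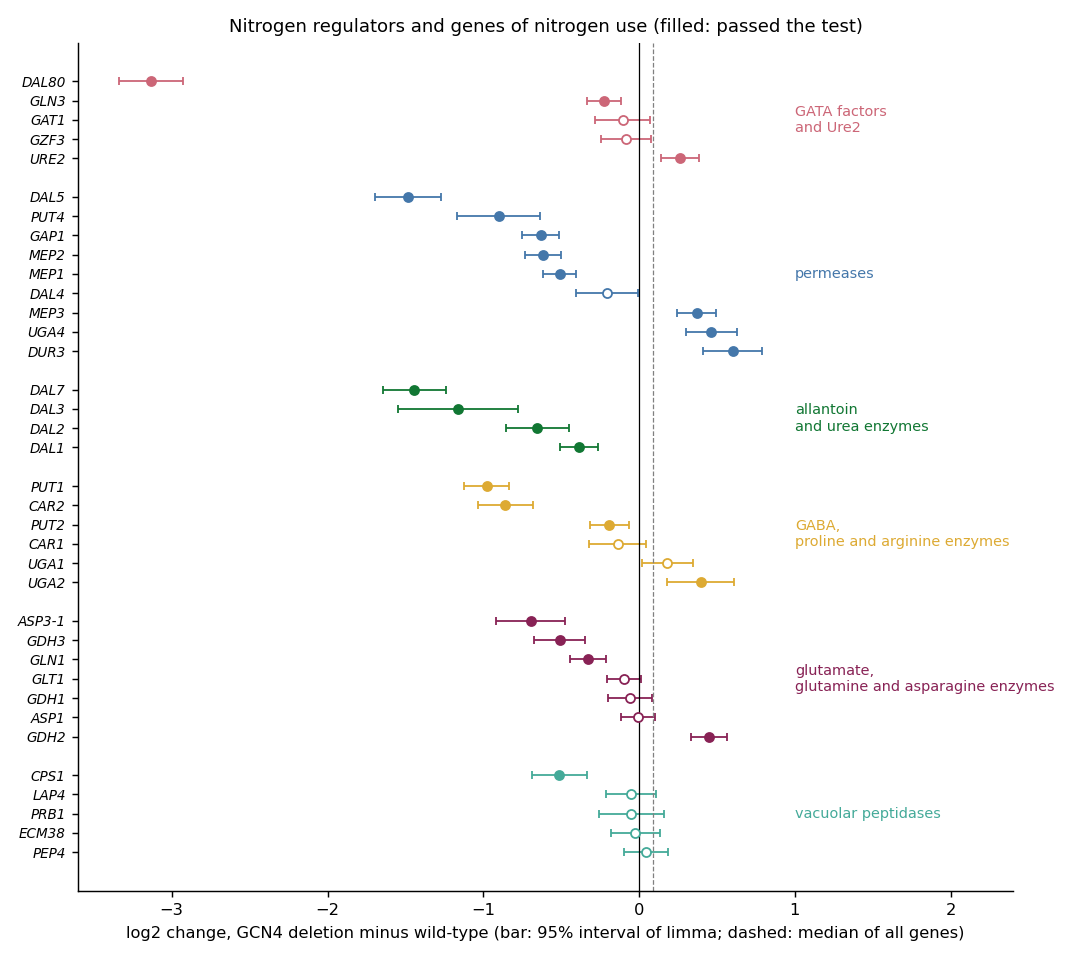
Log2 change (deletion minus wild-type) of the 5 regulators and 31 measured genes of nitrogen use, by role, with 95% intervals from limma (filled, passed the test; open, did not pass; dashed line, median of all genes). DAL80 is the lowest of all, the 4 allantoin enzyme genes lie to the left of 0, and MEP3, UGA4, DUR3, UGA2 and GDH2 lie to the right.

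The permease genes went both ways, with 5 of 9 lower (55.6%), 3 higher (33.3%) and 1 not passing. Over all genes 7.67% were called lower and 24.6% higher. DAL5, which encodes the allantoate and ureidosuccinate permease, stood at log2 levels of 11.99, 12.23 and 12.20 on wild-type arrays against 10.77, 10.62 and 10.57 on deletion arrays. Every deletion array was lower, and the log2 change was -1.48 (adjusted p = 9.31e-05). The general amino acid permease gene GAP1 fell 1.55-fold and the ammonium permease genes MEP2 and MEP1 fell 1.53-fold and 1.42-fold. PUT4, the proline permease gene, fell 1.87-fold. The 3 permease genes that rose were DUR3 (urea) by 1.52-fold, UGA4 (GABA) by 1.38-fold and MEP3 (ammonium) by 1.29-fold (adjusted p of 0.00213, 0.00325 and 0.00286). Dal80 is known to repress UGA4 and also the allantoin genes, whose measured enzyme genes fell. The part of Dal80 in these changes was not tested. For the allantoin permease gene DAL4 the log2 change of -0.20 missed the threshold (adjusted p = 0.109), and each rescaling made it a lower call. The change was -0.31 after centring, -0.44 after cyclic loess and -0.61 after quantile normalization (adjusted p of 0.0264, 0.00347 and 0.0018).

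All 4 measured genes of the allantoin enzymes fell, beside 7.67% of all genes called lower. DAL7, which encodes malate synthase of this pathway, had mean log2 levels of 12.31 ± 0.15 and 10.87 ± 0.06 in wild-type and deletion (SD, n = 3), a fall of 2.72-fold (adjusted p = 8.25e-05). DAL3, ureidoglycolate lyase, fell 2.24-fold, DAL2, allantoicase, 1.57-fold and DAL1, allantoinase, 1.31-fold.

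Among genes of GABA, proline and arginine use, 3 of 6 fell and 1 rose, beside 7.67% of all genes called lower and 24.6% higher. PUT1, proline oxidase, fell 1.97-fold and CAR2, ornithine aminotransferase, 1.81-fold (adjusted p of 0.0001 and 0.000366). PUT2 fell 1.14-fold, a call lost in 6 of 16 other settings. These included the removal of any 1 array other than deletion replicate 3, with an adjusted p from 0.0830 to 0.118. UGA2, succinate semialdehyde dehydrogenase, rose 1.32-fold (adjusted p = 0.0175), also lost in 6 of 16 settings. Quantile normalization gave an adjusted p = 0.0802, and the removal of wild-type replicate 1 or 3 or of deletion replicate 1 or 2 gave 0.0501 to 0.0602. The GABA transaminase gene UGA1, with a log2 change of 0.18, missed the threshold (adjusted p = 0.0872). Blocking on the replicate number (adjusted p = 0.0229), array weights (adjusted p = 0.0287) or removing wild-type replicate 2 (adjusted p = 0.0448) brought it past. The arginase gene CAR1 changed by -0.14 on that scale, which did not pass (adjusted p = 0.226) unless wild-type replicate 3 was removed (adjusted p = 0.0467) or quantile normalization was used (adjusted p = 0.0391).

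In glutamate, glutamine and asparagine metabolism 3 of 7 measured genes fell and 1 rose, beside 7.67% of all genes called lower and 24.6% higher. ASP3-1, secreted asparaginase, fell 1.62-fold. Its probe set may be shared by the near-identical copies of the gene, which cannot be told apart. GDH3, a glutamate dehydrogenase isozyme gene, fell 1.42-fold and GLN1, glutamine synthetase, 1.26-fold (adjusted p of 0.00239 and 0.00332). GDH2, the NAD-dependent glutamate dehydrogenase that releases ammonium, rose 1.37-fold (adjusted p = 0.000977). Of 5 vacuolar peptidase genes, CPS1, carboxypeptidase S, fell 1.43-fold (adjusted p = 0.00302). LAP4 (APE1) had a log2 change of -0.05 and the other 3 lay between -0.05 and 0.05, none of which passed.

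Among 5 activators that act beside the GATA factors on single pathways, 1 rose, 1 fell and 3 did not pass. Over all genes 24.6% were called higher and 7.67% lower. ARO80, the activator of aromatic amino acid catabolism, rose 1.30-fold (adjusted p = 0.00351). UGA3, the activator of the GABA genes, fell 1.23-fold (adjusted p = 0.0207), a call lost in 4 of 16 other settings, including without wild-type replicate 1 or 3 or deletion replicate 2 (adjusted p of 0.0575 to 0.0727). DAL81, DAL82 and PUT3 had log2 changes of 0.02, -0.15 and 0.11. Quantile normalization took DAL82 to -0.34, a lower call (adjusted p = 0.0218).

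The other genes with a GATA-type zinc finger served as a comparison by family. Of these 6, 2 rose (33.3%) and 4 did not pass, beside 24.6% of all genes called higher and 7.67% lower. GAT2 read 10.92, 10.88 and 10.92 on wild-type arrays and 11.90, 11.89 and 12.00 on deletion arrays (log2), without overlap, a rise of 2.03-fold (adjusted p = 4.24e-05). This is opposite in direction to GLN3 and DAL80. GAT4 was at background on all wild-type arrays and above it on all 3 deletion arrays, at least 1.11-fold higher (adjusted p = 0.00354). Its log2 change turned to -0.06 after quantile normalization (adjusted p = 0.635), and 147 other-species probe sets at a like level had a median of -0.25. ASH1, which represses mating-type switching in daughter cells, had a log2 change of 0.14 and SRD1 of -0.26. Neither passed, and blocking on replicate number brought both past the threshold (adjusted p of 0.0331 and 0.016). Array weights also did so for ASH1 (adjusted p = 0.0494). ECM23 was at background on 5 of 6 arrays and GAT3 on all 6, and neither is given a change.

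Signalling genes that act on Gln3 and Gat1 through TOR complex 1 were measured for 28 of 28 listed. Of these 4 rose, 1 fell and 23 did not pass. The shares were 14.3% higher and 3.57% lower, beside 24.6% and 7.67% of all genes. The median log2 change was 0.07, close to the 0.09 of all genes. The block on replicate number gave 5 higher and 2 lower, with 1925 and 666 over all genes. The balance turned with scaling, to 0 higher and 3 lower after centring, 1 and 4 after quantile normalization, and 1 and 3 after cyclic loess. CDC55, a regulatory subunit gene of phosphatase 2A, had a log2 change of -0.20 that did not pass (adjusted p = 0.0871), and was called lower in 6 of the 16 other settings (adjusted p of 0.0289 to 0.0409). SLM4, of the complex that anchors the Gtr GTPases, went from -0.14 (adjusted p = 0.171) to a lower call at -0.24 after centring and after quantile normalization (adjusted p of 0.0284 and 0.0279). For the 5 genes of the kinase complex limma made 0 calls, with 1 at an unadjusted p under 0.05. That was TOR2, at a log2 change of 0.18, while TOR1 had -0.10. TAP42, whose product binds the phosphatases that act on Gln3, had a change of 0.28 that passed only with the block among the settings tried (adjusted p = 0.00731). PPH21, a phosphatase 2A catalytic subunit gene, rose 1.22-fold (adjusted p = 0.00839), and RRD2 had a change of 0.35 that did not pass. GTR1, a GTPase that activates the kinase complex, rose 1.20-fold and IML1, of the complex that opposes it, fell 1.17-fold (adjusted p of 0.0297 and 0.0369). MTC5 and RTC1 also rose, each 1.15-fold (adjusted p of 0.0321 and 0.0197). The 4 higher calls were lost after centring (adjusted p of 0.0770 to 0.294), and those of GTR1, MTC5, RTC1 and IML1 in 6 to 10 of the 16 settings. Leaving out any array ended the MTC5 call (adjusted p of 0.0505 to 0.111), and leaving out any but wild-type replicate 3 ended those of GTR1 and IML1 (adjusted p of 0.0550 to 0.107). The call of RTC1 ended without any array but wild-type replicate 1 or deletion replicate 3 (adjusted p of 0.0529 to 0.0750).

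Genes next to the 5 regulators on their chromosomes were read from the order of genes in the annotation. Of 10 nearest measured neighbours, 2 rose and 8 did not pass, beside 24.6% of all genes called higher and 7.67% lower. Those of DAL80 were SPO14 on one side, with 1 unmeasured gene between them, and DID2 on the other, with log2 changes of -0.15 and -0.31 (adjusted p of 0.084 and 0.121). The neighbours that rose were YEN1 beside GLN3, and PAU5 beside GAT1, with log2 changes of 0.40 and 0.58 (adjusted p of 0.00196 and 0.00516). Of the activator genes beside them, GLN3 was called lower and GAT1 did not pass. The neighbours of GZF3 and URE2 had log2 changes of 0.06 to 0.13.

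Likeness of pattern was measured as the root mean square difference between log2 profiles over the 6 arrays, each centred on its own mean, among 5364 other genes above background on all arrays of a group. DAL80 had no near match within 0.1, and its closest genes were SUL1 (sulfate permease) at 0.40, FET4 (iron transporter) at 0.46 and AQY1 (aquaporin) at 0.70. Their Pearson r with DAL80 was 0.993 to 0.997, which reflects the step between the groups that they share. GLN3 had 681 genes within 0.1, led by ADE12, YMR155W and DLD3 (0.019 to 0.022), and URE2 had 1017, led by GDE1, MSK1 and XDJ1 (0.011 to 0.020). For GAT1 the closest were SFH1, KIN4 and LIA1, and for GZF3 PPT1, EFM2 and RLP7, with 968 and 1168 genes within 0.1. This distance grows with the size of a step, so the counts within 0.1 restate how far each gene changed.

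**Figure D4:**
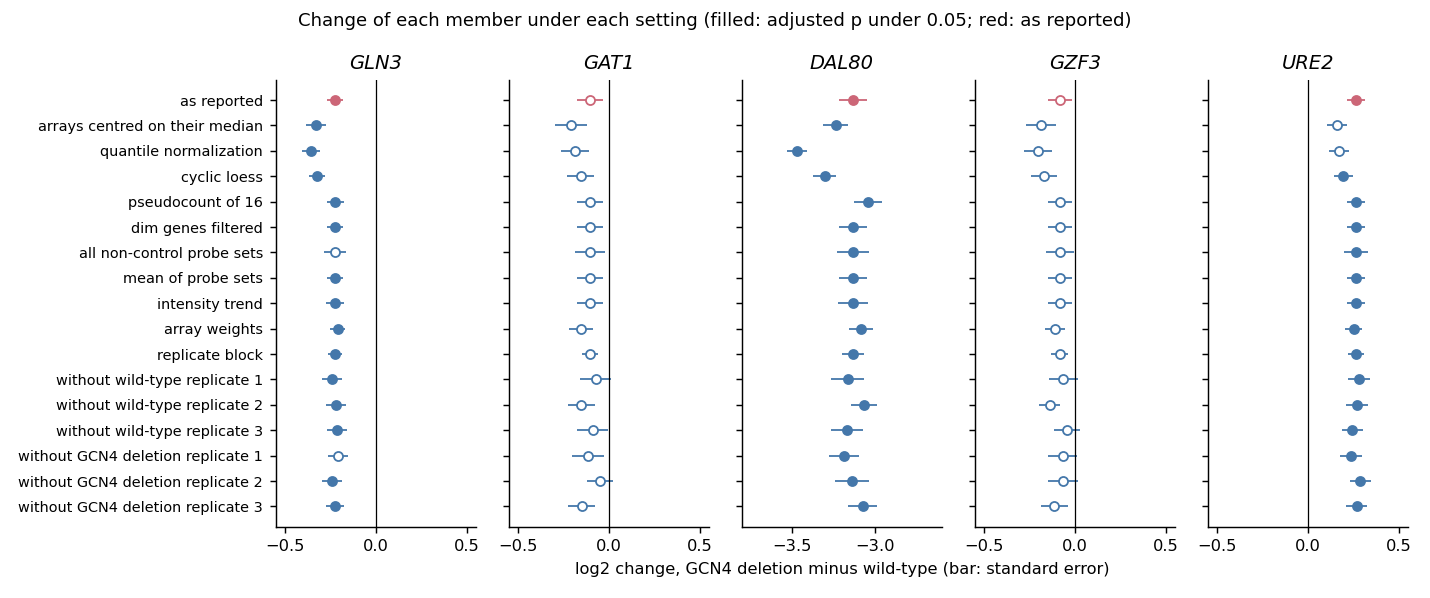
Log2 change (deletion minus wild-type, bars standard error) of each gene as reported and under 16 other settings, filled where the adjusted p was under 0.05; the DAL80 axis is centred on -3.2 and does not include 0. DAL80 is filled in every setting, GLN3 in 14 of 16 and URE2 in 14 of 16, and GAT1 and GZF3 are open and negative in all 16.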

How the data were processed

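For 6 Affymetrix arrays the authors deposited a table of normalised linear intensity values from 9.03 to 35044. The submitters' processing notes name R 2.8.0, affy and RMA, with no role or order. Log2 was taken without a pseudocount, because the design had assumed log2 values. Groups and replicate numbers came from titles. The platform annotation named the probe sets, and symbols were updated from the R64 gene table. For genes with several probe sets, the highest mean over the arrays was used. The strains were compared on log2 values by limma 3.58.1 (lmFit and eBayes, R 4.3.3; two-sided, without covariates), tested on simulated data. The p-values were adjusted by Benjamini-Hochberg over 5449 genes, with a threshold of 0.05. A gene at background on all arrays of 1 group and above it on all arrays of the other is given as "at least" a fold. A gene at background on all arrays of a group, and on most of the other, is given no change. The number of arrays limits precision.

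Same-numbered arrays deviated from their group means together (r of 0.69, 0.53 and 0.71), a hint from the data that the numbers pair the arrays. The reported test has no block, and the fit with the number as a block was an alternative, given where it changed the call of a gene above background. Members and lists were chosen with earlier results of these data known, the fall of DAL80 and of several target genes included. Genes named were all members, in each role the called genes changed at least 2-fold (up to 4) or else the 2 largest changes, the other GATA finger genes, the nearest neighbours and the 3 most alike genes. Further genes were named after their values were seen. Alternatives covered scaling, filters, probe sets, the test, array weights, the block and each array left out. Sequence was not used here, so the planned motif and zinc finger comparison was not run. Figures were drawn with matplotlib 3.10.9.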

Additional observations from a re-analysis of the deposited data

How the results depend on the processing

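DAL80 kept its direction and call, and GAT1 and GZF3 stayed negative and uncalled, under all 16 alternatives. GLN3 lost its call when every probe set but controls was tested (log2 change -0.22) and without deletion replicate 1 (limma, adjusted p = 0.0523). Its change was -0.24 to -0.21 on leaving out 1 array. URE2 lost its call after centring (0.16) and quantile normalization (0.17) but kept it after cyclic loess (0.19). The cause was not tested. The replicate block changed no call of a member. Over all genes, 418 lower and 1338 higher calls (76.2% higher) became 703 and 778 (52.5%) after centring, 873 and 692 (44.2%) after quantile normalization, 690 and 868 (55.7%) after cyclic loess, and 229 and 832 when every probe set but controls was tested. With the replicate block, 666 were lower and 1925 higher. Leaving out 1 array gave 270 to 355 lower calls, the lowest without wild-type replicate 1 and 272 without deletion replicate 2. The difference of change between GAT1 and GZF3 reversed to 0.020 after quantile normalization, within its standard error of 0.05. Counts over the list of nitrogen-use genes stayed within 1.5 times. Of the 16 listed genes called lower, 15 kept the call under every alternative, and 4 of the 5 called higher.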
